A study of Mus musculus with 15 samples.

Results

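The receptor and signalling genes of the interleukin-6 (IL-6) and interleukin-1 (IL-1) systems, Il6ra, Il6st, Lifr, Osmr, Lepr, Stat3, Socs3, Il1r1 and Il1rn, were followed through 15 mouse liver RNA-seq libraries: 9 genes in all. They were chosen by symbol from the deposited count tables, are 9 of the 24499 genes listed there, and all 9 passed the filter on low counts. The study modelled alcoholic liver injury laid over chronic liver damage in adult male C57BL/6 mice. Carbon tetrachloride (CCl4), a hepatotoxic solvent, was injected at 0.2 ml/kg 2 times a week for 6 weeks. Ethanol then ran into the stomach through a feeding tube for 3 weeks, at up to 25 g/kg per day, and the CCl4 arms taken later went on with CCl4 at a reduced dose.

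The arm that received no CCl4 is labelled OO, letters that the labels leave unexplained. At day 0 there were 2 OO and 2 CCl4 libraries. At day 20 there was 1 OO library on chow, and there were 3 OO libraries on ethanol, 2 CCl4 libraries on chow and 3 CCl4 libraries on ethanol. At day 23 there was 1 OO library on chow and 1 OO library on ethanol, from a different substudy. The ethanol arms are also labelled with a high-fat diet, so ethanol and diet cannot be told apart. Libraries carry their label numbers here: 1 and 2 (OO day 0), 3 and 4 (CCl4 day 0), 5 (OO chow day 23), 6 (OO ethanol day 23), 12 (OO chow day 20), 13 to 15 (OO ethanol day 20), 16 and 17 (CCl4 chow day 20) and 18 to 20 (CCl4 ethanol day 20). Nothing in the labels ties each library to its own animal. The p-values therefore reflect differences among libraries, which may be technical.

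IL-6 binds its receptor, encoded by Il6ra, and the complex recruits the shared signalling chain gp130, encoded by Il6st. Janus kinases bound to gp130 then phosphorylate STAT3, which enters the nucleus and, in hepatocytes, drives the acute-phase genes whose products fill the plasma in inflammation. Socs3, itself a STAT3 target, binds gp130 and the kinases and shuts the signal off. Lifr and Osmr encode chains that pair with gp130 for leukaemia inhibitory factor and oncostatin M, and the leptin receptor Lepr is a gp130 relative that also signals through STAT3. The IL-1 receptor, encoded by Il1r1, works through MyD88 and NF-kB, cooperates with IL-6 in the acute phase, and is blocked by the secreted antagonist encoded by Il1rn.

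Stretches of 2 promoters are shown because Socs3 and Il1rn had the widest ranges of the 9 genes across libraries and are the only members whose windows held either motif searched. The windows are those of RefSeq on GRCm38.p6, the assembly of mm10, 300 bases each with 250 before and 50 after a transcription start. TTCNNNGAA, the palindrome that STAT3 and other STAT factors bind, occurred in 8.3% of 32851 windows and in 1 of the 9 genes, Socs3. CTGGGAA, the core of the type II acute-phase element, searched on both strands, occurred in 11.1% of windows and in 1 of the 9 genes, Il1rn. Both motifs end in GAA, and no match in these genes overlapped a match of the other motif. The Socs3 stretch is chr11:117969452-117969616 on the minus strand, inside the longer gene model but outside its exons, and its match lies 154 bases before the RefSeq start. The Il1rn stretch is chr2:24336733-24336852 on the plus strand, directly before the gene model, and its match lies 15 bases before the RefSeq start. Further Il1rn matches lie outside the stretch. Capitals mark the match, which describes these letters and not a bound site.
Socs3: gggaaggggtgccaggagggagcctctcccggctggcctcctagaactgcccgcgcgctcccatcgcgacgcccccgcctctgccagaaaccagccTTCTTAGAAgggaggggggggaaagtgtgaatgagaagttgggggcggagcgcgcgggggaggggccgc
Il1rn: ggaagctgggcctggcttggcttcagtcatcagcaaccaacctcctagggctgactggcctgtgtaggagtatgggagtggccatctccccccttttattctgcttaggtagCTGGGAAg

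Gene counts ran from 10347844 to 28843258 per library. Levels are in CPM, counts relative to library size after TMM scaling. Hepatocyte transcripts were abundant in every library, albumin (Alb) between 33025 and 62929 CPM. Libraries 13 and 14 of the same group of 3 stood apart in these genes. Library 13 was the highest of the group in 8 of the 9, against 38.1% of all tested genes, and library 14 was the lowest in 8 of the 9, against 28.2%. Most results of the 9 genes that rest on either one, or on the spread it adds, are also given without it. For genes of the pathway lists they mostly are not. Both libraries were picked out from the levels of these same genes, so results without them are no independent evidence. The 7 exocrine pancreas genes checked summed to 120 CPM in library 12 and 115 CPM in library 6, against 5.46 to 14 CPM in the rest. Library 12 is the single control of 3 comparisons and enters the interaction, and a part of the pancreas transcripts in those results was not tested. Lane numbers in the names of the deposited tables differed between most groups: 2 comparisons share any lane, and in the others lane and group cannot be told apart.

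Across the 15 libraries the genes spanned very different levels and ranges. Per kilobase of exon, the median level was highest for Lifr at 34.8 CPM per kb, then Il6st at 28.7, Stat3 at 19.4, Il1r1 at 12.1 and Socs3 at 8.95. Il6ra had a median of 2.73 CPM per kb, Osmr 1.69, Il1rn 1.55 and Lepr 1.34. The ligand-binding chain Il6ra was thus listed far below the signalling chain Il6st with which it pairs. The ratio of the highest to the lowest library was 2.02 for Il6st, 2.22 for Lifr, 2.47 for Stat3 and 2.56 for Il6ra. It was 4.47 for Osmr, 6.36 for Il1r1, 8.08 for Lepr, 9.94 for Il1rn and 11.4 for Socs3.

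**Figure D1:**
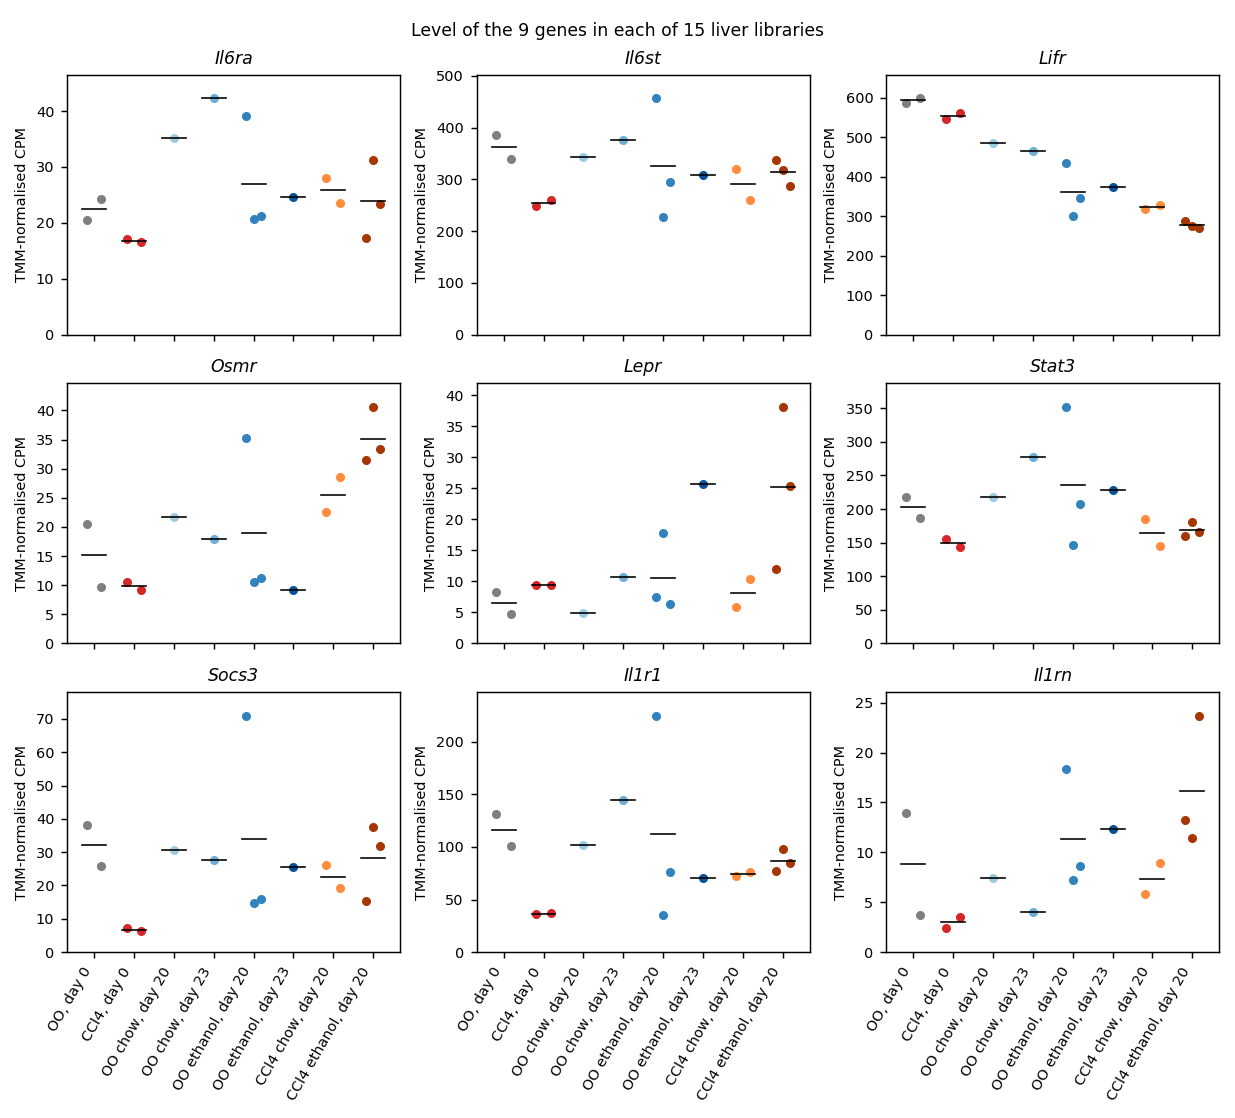
Level of each of the 9 genes in TMM-normalised CPM (vertical axis, from 0) in every library, by group (horizontal axis); points are libraries and lines are group means. Lifr steps down from 588 and 599 CPM in the OO day 0 libraries to between 270 and 287 CPM in the CCl4 ethanol libraries, while the 2 CCl4 day 0 libraries are the lowest of all for Socs3, and 1 OO ethanol library, 13, stands high in most panels.

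The comparison in which most of the 9 genes passed the test was that of CCl4 livers at day 20 on ethanol with CCl4 livers at day 0, which asks what 3 further weeks on ethanol with CCl4 left in the liver. Osmr, Socs3 and Il1rn rose and Lifr fell, so 4 of 9 were called at an adjusted p under 0.05, where 20.7% of all 14778 tested genes were called (11.6% higher and 9.11% lower). DESeq2 called 5, at a background of 20.4%, and limma-voom 3, at 19.9%. Without library 13 edgeR called 5, with Il1r1 added, among 3762 genes in all, against 3059 with it. Without library 14 it called 6, with Il1r1 (adjusted p = 0.0291) and Lepr (0.0417) added, among 3039 genes. In 8 of 9 genes every ethanol library lay above both day 0 libraries, and in Lifr every one lay below, while 28.3% of all genes were separated upward and 27.1% downward. The median log2 change was 1.25 over the 9 genes and 0.02 over all genes. CCl4 livers on chow at day 20 share the day 0 controls with this comparison. There only Lifr was called, at a background of 11.5% (7.27% higher and 4.2% lower) by edgeR and 10.7% by limma-voom. An unadjusted p under 0.05 was found for 3 of the 9 and for 26.5% of all genes. DESeq2 called Osmr as well, at a background of 14%. Without library 13 edgeR called 4, among 2332 genes in all, against 1694 with it. On chow 5 of 9 genes were separated upward and 1 downward, against 30.9% and 29.7% of all genes.

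No member was called by edgeR in 7 of the other 8 contrasts. For CCl4 against OO at day 0, 2.06% of all genes were called. Of the 9 genes 3 had an unadjusted p under 0.05, against 17% of all genes, and DESeq2 and limma-voom called 0. Yet 7 of 9 were separated downward and 1 upward, where 29% and 30.5% of all genes were, and the median log2 difference was -0.51 against 0.01 over all genes. For ethanol against chow, 3.64% of all genes were called in OO livers and 1.27% in CCl4 livers. In each, 1 of the 9 genes had an unadjusted p under 0.05, as did 18.9% and 11.8% of all genes, respectively. DESeq2 called 0 in OO livers and Lepr in CCl4 livers, where it called 3.11% of all genes, and limma-voom called 0 in both. In CCl4 livers 4 of 9 genes were separated upward by ethanol and 1 downward, against 13.1% and 13.5% of all genes.

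For CCl4 against OO under ethanol, 23.7% of all genes were called and 0 of the 9. An unadjusted p under 0.05 was found for 3 of the 9 and for 35.7% of all genes. DESeq2 called Lepr and Lifr there, at a background of 22.5%, and limma-voom called Osmr, at 23.3%. Without library 14 edgeR called 3, Lepr (log2 1.86, adjusted p = 0.0162), Lifr (-0.49, 0.0259) and Stat3 (-0.72, 0.0317), among 2869 genes in all. Without library 13 it called Osmr alone of the 9, among 3981 genes in all. Under chow, with library 12 as the only OO library, 0.189% of all genes were called, and both other tools called 0 of the 9. Of the 9 genes 1 had an unadjusted p under 0.05, against 6.89% of all genes. For CCl4 with ethanol against OO with chow, Lifr was called, at a background of 2.8%. The interaction of CCl4 and ethanol gave 0 of 9 calls at a background of 0.0135%, with 0 unadjusted p-values under 0.05 and 0 calls by either other tool. The interaction estimates had standard errors of 0.24 for Lifr to 0.95 for Socs3 on the log2 scale, so a difference between the ethanol effects in the 2 arms is poorly bounded. Later chow against day 0 in OO livers gave 0 of 9 calls at a background of 0.379%, and 0 calls by the other tools. There 1 of the 9 had an unadjusted p under 0.05, against 13.9% of all genes.

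**Figure D2:**
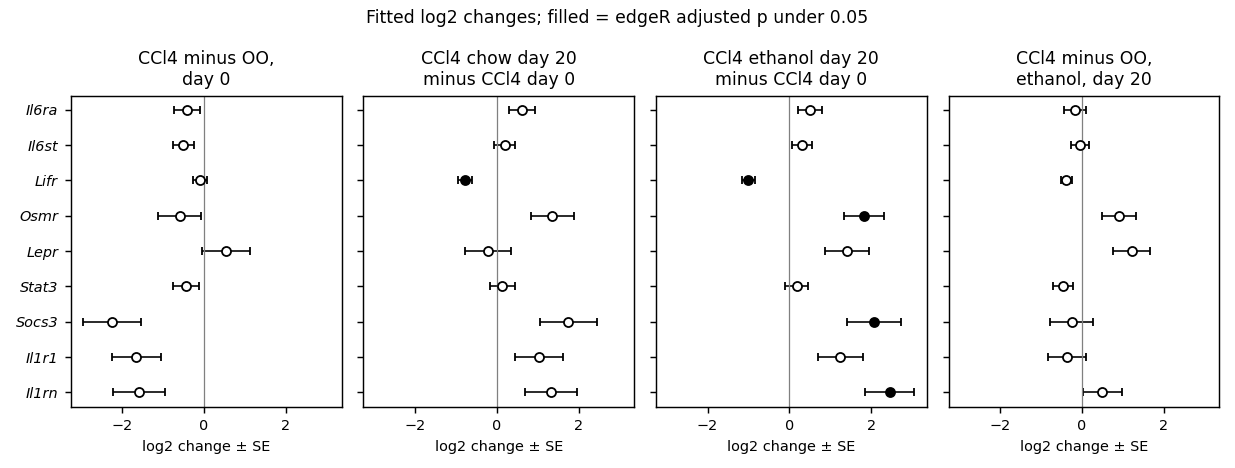
Fitted log2 change with its standard error (horizontal axis) for each of the 9 genes (vertical axis) in 4 contrasts; filled circles have an adjusted p under 0.05 by edgeR. The changes of the 2 panels against CCl4 day 0 share those 2 control libraries; Lifr is the one gene filled in both, where it fell by 0.78 and 1.00.

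Lifr, which encodes the receptor chain for leukaemia inhibitory factor, had the most orderly levels of the 9. It stood at 588 and 599 CPM in libraries 1 and 2 (OO day 0) and at 547 and 561 CPM in libraries 3 and 4 (CCl4 day 0). It stood at 485 CPM in library 12 and 465 CPM in library 5 (OO chow), at 435, 300 and 347 CPM in libraries 13 to 15 and at 375 CPM in library 6 (OO ethanol). The CCl4 livers at day 20 had 319 and 329 CPM on chow and 287, 275 and 270 CPM on ethanol. All later libraries lay below all 4 day 0 libraries, and the 3 CCl4 ethanol libraries lay below the other 12. From day 0 Lifr fell by 1.00 ± 0.15 on the log2 scale in CCl4 livers on ethanol (SE; adjusted p = 9.84e-04, edgeR). This call was kept under all 24 alternative settings, with log2 changes between -1.02 and -0.98.

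On chow Lifr fell by 0.78 ± 0.17 on the log2 scale from day 0 in CCl4 livers (SE; adjusted p = 0.015, edgeR). That call was lost when library 3, 4, 16 or 17 was left out, with adjusted p-values of 0.0941, 0.106, 0.0772 and 0.0709, while the change stayed between -0.81 and -0.75 over the alternatives. Against the OO chow library 12, CCl4 livers on ethanol stood 1.75-fold lower (log2 -0.81 ± 0.18, SE; adjusted p = 0.0433, edgeR), and 15 of 23 alternatives put the adjusted p above 0.05. Within the lane that library 12 shares with library 19 the log2 difference was -0.82. Under ethanol the 3 CCl4 libraries lay below the 3 OO libraries without overlap, as 17.4% of all genes did, with a log2 difference of -0.38 ± 0.14 (SE) and an adjusted p of 0.0662 by edgeR. That p was 0.0451 by DESeq2 and 0.0259 without library 14. In 20 of 24 alternatives Lifr stayed uncalled there, and the log2 difference ran from -0.49 to -0.22 over the alternatives. In OO livers the ethanol difference from library 12 was -0.43 ± 0.19 (SE; adjusted p = 0.247, edgeR). Without library 13, the highest of its group, it was -0.59 with an adjusted p of 0.0333, and no other alternative called it.

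Osmr, the chain that pairs with gp130 to bind oncostatin M, moved the other way. In CCl4 livers it stood at 10.6 and 9.2 CPM at day 0, at 22.5 and 28.5 CPM on chow and at 31.5, 40.6 and 33.3 CPM on ethanol at day 20. These 3 groups did not overlap, and ethanol libraries were the highest. OO livers had 20.5 and 9.74 CPM at day 0, 21.7 CPM in library 12, 18 CPM in library 5, 35.2, 10.5 and 11.2 CPM in libraries 13 to 15 and 9.09 CPM in library 6. In CCl4 livers on ethanol Osmr rose 3.54-fold from day 0, a log2 change of 1.82 ± 0.49 (SE; adjusted p = 0.0217, edgeR). The call was lost without library 3 (adjusted p = 0.122) or library 4 (0.15), and within the lanes shared by both groups the log2 differences were 1.93 and 1.84.

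On chow the log2 difference of Osmr from day 0 was 1.36 ± 0.52 (SE; adjusted p = 0.117, edgeR), and 0.011 without library 13, which belongs to neither group and enters through the shared estimate of spread. Under ethanol, CCl4 and OO livers differed by 0.91 ± 0.41 on the log2 scale (SE; adjusted p = 0.135, edgeR), with library 13 inside the CCl4 range. Without library 13 that difference was 1.69 with an adjusted p of 0.00146, and limma-voom gave 1.19 and 0.0346 with it. Its opposite course to Lifr shows in the Pearson correlation of the log2 levels of both genes, -0.50 over the 15 libraries, given as a description of libraries that differ in group and depth.

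Il6ra and Il6st, the 2 chains of the IL-6 receptor, were called by edgeR in no contrast of the fit over all 15 libraries. Il6ra stood at 20.6 and 24.3 CPM in OO and 17.1 and 16.5 CPM in CCl4 livers at day 0. Its highest levels were 42.3 CPM in library 5, 39.1 CPM in library 13 and 35.2 CPM in library 12. The remaining OO ethanol libraries had 20.7, 21.2 and 24.7 CPM (libraries 14, 15 and 6), and the CCl4 libraries at day 20 had 28.1 and 23.6 CPM on chow and 17.3, 31.3 and 23.4 CPM on ethanol. Both later OO chow libraries lay above both OO day 0 libraries, a log2 difference of 0.78 ± 0.32 (SE; adjusted p = 0.306, edgeR), where 25.9% of all genes were separated upward. With those 4 libraries fitted alone its adjusted p was 0.0134, and it was the 1 of 9 genes called, at a background of 6.04%.

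Il6st was the steadiest of the 9, between 227 CPM in library 14 and 457 CPM in library 13, both of the same group. At day 0 it stood at 386 and 339 CPM in OO and 248 and 261 CPM in CCl4 livers, without overlap, a log2 difference of -0.51 ± 0.26 (SE; adjusted p = 0.36, edgeR). At day 20 CCl4 livers had 320 and 261 CPM on chow and 338, 319 and 288 CPM on ethanol. Libraries 12, 5, 6 and 15 had 343, 377, 308 and 295 CPM. At day 20 and later the group means ran from 291 CPM (CCl4 chow) to 377 CPM (library 5), closer together than libraries 13 and 14 of a single group.

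Lepr, the leptin receptor, whose soluble form the liver releases, was high in a few libraries that received ethanol. It stood at 25.7 CPM in library 6, 17.8 CPM in library 14, and 12, 38.1 and 25.3 CPM in libraries 18 to 20, while libraries 13 and 15, also on ethanol, had 7.53 and 6.29 CPM. The libraries without ethanol lay between 4.71 CPM in library 2 and 10.7 CPM in library 5, with 9.45 and 9.39 CPM in the CCl4 day 0 pair and 5.85 and 10.4 CPM in CCl4 livers on chow. At day 20 all 3 CCl4 ethanol libraries lay above the 3 chow libraries of both arms. Ethanol against chow in CCl4 livers gave a log2 difference of 1.62 ± 0.53 (SE; adjusted p = 0.233, edgeR), without overlap. DESeq2 gave 0.0376, and the other 23 of 24 alternatives left Lepr uncalled. In OO livers the difference was 1.15 ± 0.72 (SE; adjusted p = 0.426, edgeR) against library 12 alone, and it was 0.00 at the low end of the alternatives. CCl4 livers on ethanol against day 0 gave 1.41 ± 0.53 (SE; adjusted p = 0.0831, edgeR), and 0.0355 without library 18, the lowest of its group. There 21 of 24 alternatives left Lepr uncalled.

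Stat3, the transcription factor on which these receptors converge, was called in no contrast of the fit over all 15 libraries. It stood at 218 and 187 CPM in OO and 156 and 143 CPM in CCl4 livers at day 0, and at 185 and 145 CPM on chow and 160, 181 and 166 CPM on ethanol in CCl4 livers at day 20. In OO livers it was 218 CPM in library 12, 277 CPM in library 5, 352, 146 and 207 CPM in libraries 13 to 15 and 228 CPM in library 6. The highest and nearly the lowest value thus came from 1 group, OO on ethanol at day 20. In CCl4 livers on ethanol its log2 change from day 0 was 0.18 ± 0.28 (SE; adjusted p = 0.706, edgeR), with all 3 ethanol libraries above both day 0 libraries. Stat3 shares 72 exonic bases with Stat5a on the opposite strand, and reads from those bases cannot be told apart if counting ignored strand.

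Socs3, the feedback inhibitor, had the widest range of all. Libraries 3 and 4, the CCl4 livers at day 0, stood at 7.14 and 6.23 CPM, below every other library. OO livers at day 0 had 38.2 and 25.9 CPM, and the single OO libraries 12, 5 and 6 had 30.5, 27.5 and 25.4 CPM. Libraries 13 to 15 had 71, 14.8 and 16 CPM, so library 13 stood 4.61 times above the mean of the other 2. In CCl4 livers at day 20 Socs3 was 26.1 and 19.1 CPM on chow and 15.4, 37.6 and 31.9 CPM on ethanol, all above both day 0 values.

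From day 0 Socs3 rose 4.19-fold in CCl4 livers on ethanol, a log2 change of 2.07 ± 0.67 (SE; adjusted p = 0.048, edgeR). The call sits at the threshold: 11 of 24 alternatives lost it, limma-voom among them (adjusted p = 0.0897), and leaving out library 3 or 4 gave 0.203 and 0.223. Within the 2 lanes shared by both groups the log2 differences were 2.38 and 2.33. On chow the change was 1.75 ± 0.70 (SE; adjusted p = 0.138, edgeR) and at day 0 the CCl4 libraries differed from OO by -2.25 ± 0.71 (SE; adjusted p = 0.125, edgeR). Without library 13, which is in none of these groups, those adjusted p-values were 0.0126 and 0.00963, and the change on ethanol had 0.002. The fitted changes were again 1.75, -2.25 and 2.07, with standard errors of 0.38, 0.38 and 0.36.

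Il1r1, the signalling receptor of IL-1, followed much the same order as Socs3. It stood at 131 and 101 CPM in OO livers at day 0 and at 36 and 37.1 CPM in CCl4 livers, a log2 difference of -1.66 ± 0.60 (SE; adjusted p = 0.177, edgeR). Later CCl4 livers had 72.8 and 76.5 CPM on chow and 77.1, 98.5 and 84.9 CPM on ethanol, so the day 0 pair lay apart from all of them. Libraries 12 and 5 had 102 and 145 CPM, library 6 had 70.3 CPM, and libraries 13 to 15 had 225, 35.4 and 75.8 CPM. Library 14 was therefore as low as the CCl4 day 0 livers, and library 13 was the highest of all. On ethanol the log2 change from day 0 in CCl4 livers was 1.25 ± 0.55 (SE; adjusted p = 0.14, edgeR). Without library 13 the day 0 difference had an adjusted p of 0.0102, and the changes on chow and ethanol had 0.0308 and 0.00582.

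With the compared libraries fitted alone, 5 of the 9 genes were lower in CCl4 livers at day 0: Il1r1, Socs3, Il6st, Stat3 and Il6ra, at adjusted p-values from 1.69e-04 to 0.0439 by edgeR and a background of 17.2%. In the same way 6 of 9 were called on chow from day 0, at a background of 17.3%, Lifr lower and Il1r1, Il1rn, Il6ra, Osmr and Socs3 higher. These fits take their spread from the 4 libraries compared, and the day 0 CCl4 pair was the closest of all replicate pairs, its counts having a chi-square of 3.93 for each degree of freedom against 19.4 to 78.4 in the others.

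Il1rn, the IL-1 receptor antagonist, was at its lowest in library 3 and at its highest in library 20. In CCl4 livers it stood at 2.38 and 3.56 CPM at day 0, 5.78 and 8.9 CPM on chow and 13.2, 11.4 and 23.7 CPM on ethanol, 3 groups without overlap. In OO livers it stood at 13.9 and 3.75 CPM at day 0, 7.43 and 3.97 CPM in the chow libraries 12 and 5, and 18.3, 7.26, 8.59 and 12.3 CPM in the ethanol libraries 13, 14, 15 and 6. The OO day 0 pair thus differed nearly as much in CPM as the OO ethanol libraries did, and by a larger ratio of highest to lowest. Il1rn rose 5.46-fold from day 0 in CCl4 livers on ethanol, a log2 change of 2.45 ± 0.61 (SE; adjusted p = 0.0146, edgeR). DESeq2 and limma-voom made the same call, and it was lost without library 3 (adjusted p = 0.144) or 4 (0.0747). Ethanol against chow in CCl4 livers gave 1.12 ± 0.54 (SE; adjusted p = 0.467, edgeR). At day 0 CCl4 against OO gave -1.59 ± 0.64 (SE; adjusted p = 0.234, edgeR), and the alternatives ran from -2.25 to -0.36.

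At day 23 the single OO libraries on ethanol and chow are set side by side here, with no test run. Lepr and Il1rn were the 2 of 9 genes higher on ethanol. Lepr was 25.7 against 10.7 CPM and Il1rn 12.3 against 3.97 CPM, log2 ratios of 1.25 and 1.60. The other 7 were lower on ethanol, Il1r1 at 70.3 against 145 CPM and Osmr at 9.09 against 18 CPM having the largest differences, log2 -1.04 and -0.98.

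Of 9 IL-6 family ligands, 3 passed the filter on low counts, and Il6, Osm, Il11 and Lep were not among them. Il6 had at most 10 counts in a library (0.522 CPM in library 14) and 0 in 6 of 15. Osm, the oncostatin M gene, reached 0.664 CPM in library 17, Il11 0.13 CPM and the leptin gene Lep 0.079 CPM. Lif, the ligand of Lifr, had a summed count of 1 in the CCl4 day 0 libraries and stood at 0.464, 0.429 and 0.926 CPM in libraries 18 to 20. It was called higher there (adjusted p = 0.0267, edgeR), and no fold is given because of that count.

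IL-1 ligands were measurable. Of 7 tested IL-1 family ligands and decoys, 4 rose in CCl4 livers on chow from day 0, against 7.27% of all genes. On ethanol 4 rose and Il18 fell, against 11.6% and 9.11%. Il1b, encoding IL-1 beta, stood at 2.44 and 1.98 CPM in CCl4 livers at day 0, at 7.97 and 10.4 CPM on chow and at 8.69, 5.82 and 3.45 CPM on ethanol at day 20. Its log2 changes from day 0 were 2.04 ± 0.39 on chow (SE; adjusted p = 0.00882) and 1.44 ± 0.37 on ethanol (SE; adjusted p = 0.0172), both by edgeR. In OO livers Il1b had a mean of 6.91 CPM at day 0 and stood at 12.4 and 11.3 CPM in the chow libraries 5 and 12. Il1a, encoding IL-1 alpha, rose by 1.17 ± 0.22 and 1.09 ± 0.21, and Il18bp, the secreted trap of IL-18, by 1.22 ± 0.21 and 1.49 ± 0.20 on the log2 scale (SE). Il1a was also called higher in later OO chow livers than in OO livers at day 0, at 10.8 against 4.56 CPM (log2 1.25 ± 0.22, SE; adjusted p = 0.0441, edgeR), where 0.379% of all genes were called. The decoy receptor Il1r2 was called higher in both, from a summed count of 1 at day 0 to levels of 0.589 to 0.863 CPM. Under ethanol Il18bp was also higher in CCl4 than in OO livers (log2 0.59 ± 0.17, SE; adjusted p = 0.0258, edgeR), where 23.7% of all genes were called.

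Among 10 tested other receptor chains, 1 was called on chow from day 0 and 3 on ethanol, against 11.5% and 20.7% of all genes. Il1rap, the co-receptor without which Il1r1 cannot signal, fell in CCl4 livers from day 0 on chow (219 to 115 CPM, log2 -0.93 ± 0.20, SE) and on ethanol (to 97.1 CPM, log2 -1.17 ± 0.18, SE). Under ethanol it was also lower in CCl4 than in OO livers, by a log2 difference of -0.56 ± 0.16 (SE; adjusted p = 0.0267, edgeR). Il11ra1, the IL-11 receptor chain, fell on ethanol from day 0 by 0.51 ± 0.14 on the log2 scale (SE). Leprot, which shares its locus with Lepr and affects how much leptin receptor reaches the cell surface, rose by 0.67 ± 0.19 (SE; adjusted p = 0.027, edgeR). Under ethanol Leprot was also higher in CCl4 than OO livers, by 0.78 ± 0.17 (SE), as was Il18rap, an IL-18 receptor chain, at 1.55 against 0.507 CPM. In that contrast 2 of the 10 chains were called higher and 1 lower, where 23.7% of all genes were called.

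Among JAK, STAT and adaptor genes, the adaptor Grb2 rose by 0.52 ± 0.14 and Stat5b fell by 0.72 ± 0.20 on the log2 scale (SE) in CCl4 livers on ethanol from day 0, with adjusted p-values of 0.019 and 0.0246 by edgeR. In that contrast 11.6% of all genes rose and 9.11% fell. The kinases that gp130 uses varied little, Jak1 between 171 and 212 CPM, Jak2 between 34.5 and 52.9 CPM and Tyk2 between 34.4 and 44 CPM over all libraries. Under ethanol Stat5a was lower in CCl4 than in OO livers, by a log2 difference of -0.82 ± 0.26 (SE; adjusted p = 0.0378, edgeR).

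Of 11 tested other inhibitors of the JAK-STAT route, 2 phosphatase genes rose from day 0 in CCl4 livers on both chow and ethanol, against 7.27% and 11.6% of all genes. Ptpn1, encoding PTP1B, changed by 0.96 ± 0.28 and 1.18 ± 0.26, and Ptpn6, encoding SHP-1 of blood cells, by 0.60 ± 0.14 and 0.57 ± 0.13 on the log2 scale (SE). At day 0 Ptpn1 stood at 20.7 CPM in CCl4 and 41.6 CPM in OO livers. Its later means in CCl4 livers were 40.3 CPM on chow and 47.1 CPM on ethanol. Ptpn6 stood at 26.2 CPM in CCl4 and 23.4 CPM in OO livers at day 0. Socs5 was higher in CCl4 livers on ethanol than in OO livers on ethanol (0.69 ± 0.14, SE) or on chow (1.11 ± 0.22, SE; adjusted p = 0.0233, edgeR), and Ptpn6 than in OO livers on ethanol (0.50 ± 0.11, SE). Against OO livers on ethanol 23.7% of all genes were called, and against OO livers on chow 2.8%. Of 19 MyD88 and NF-kB genes, 1 was called on chow from day 0 and 2 on ethanol, against 11.5% and 20.7% of all genes. Without library 13 the counts were 7 and 6, where 2332 and 3762 genes were called in all, against 1694 and 3059 with every library. Without library 14 they were 0 and 3, where 1585 and 3039 genes were called. Chuk, an IkB kinase, fell by 0.55 ± 0.16 on chow and 0.54 ± 0.14 on ethanol, and Irak4 rose on ethanol by 0.85 ± 0.24 (log2, SE). Irak4 stood at 8.92 CPM in CCl4 and 15.3 CPM in OO livers at day 0, and at 16.1 CPM in CCl4 livers on ethanol. Adam10 and Adam17, proteases that cut IL-6 and other receptors from the cell surface, were 2 of 5 tested genes of receptor shedding. Both rose on ethanol from day 0 (0.61 ± 0.13 and 0.59 ± 0.12; log2, SE), against 11.6% of all genes. Adam10 also rose on chow (0.52 ± 0.15; log2, SE), against 7.27%. Under ethanol both were higher in CCl4 than OO livers, where 23.7% of all genes were called in either direction.

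The acute-phase genes are the output of the route in hepatocytes. At day 0, 13 of 23 were lower in CCl4 than in OO livers, where 2.06% of all genes were called in either direction. Among the 13 were the serum amyloid gene Saa1, at 49.7 and 47.6 against 4797 and 1979 CPM, and the lipocalin gene Lcn2, at 8.58 and 4.55 against 1174 and 277 CPM. The median log2 difference was -2.22 over the list and 0.01 over all genes. From day 0 in CCl4 livers 9 of 23 rose on chow, against 7.27% of all genes. On ethanol 17 rose and the hepcidin gene Hamp fell, against 11.6% and 9.11% of all genes. The medians were 1.23 and 1.85, and 0.02 over all genes in both. Steap4, a metalloreductase, stood at 139 and 124 CPM in CCl4 livers at day 0 and at 853, 961 and 609 CPM on ethanol. Reads that fit both Saa1 and its close copy Saa2 are not in either count, so Saa1 levels are uncertain. These genes were known from earlier results of the same libraries to move, so their direction is no independent evidence.

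**Figure D3:**
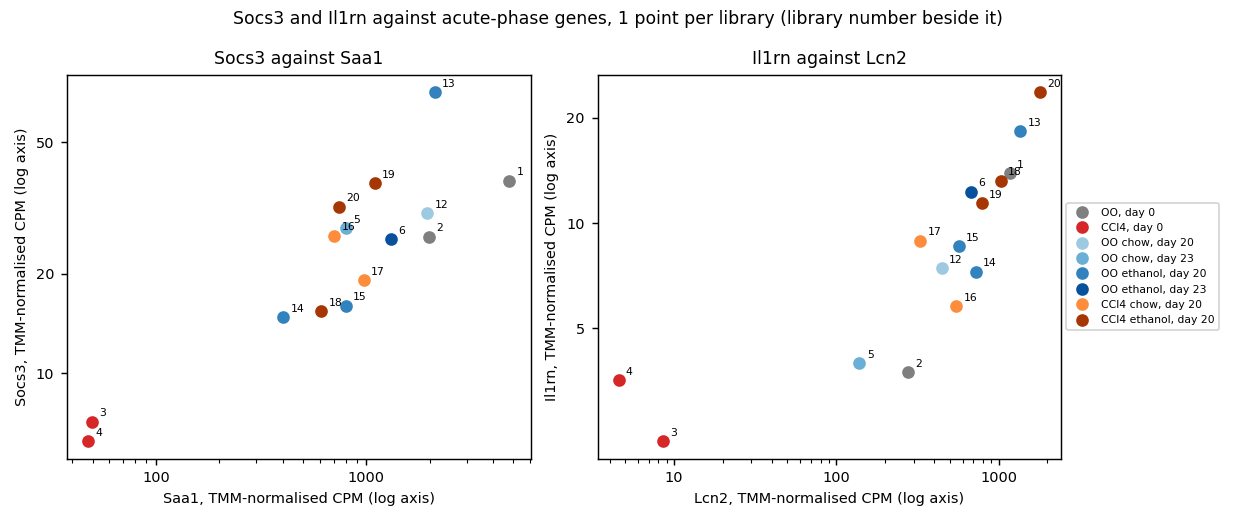
Socs3 against Saa1 (left) and Il1rn against Lcn2 (right), each in TMM-normalised CPM on log axes; each point is a library, with its number, coloured by group. The CCl4 day 0 libraries 3 and 4 lie lowest for Socs3, Saa1 and Lcn2, and libraries 13 and 20 lie highest for Il1rn and Lcn2.

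Of 14 early STAT3 and IL-6 target genes, 1 rose on chow from day 0, the transcription factor Cebpd (log2 1.68 ± 0.44, SE), against 7.27% of all genes. At day 0 Cebpd stood at 1.54 CPM in CCl4 and 3.68 CPM in OO livers. On ethanol, where 11.6% of all genes rose and 9.11% fell, Cebpd rose by 2.10 ± 0.41 (SE; adjusted p = 0.00436, edgeR) and Id1, an inhibitor of helix-loop-helix factors, fell by 1.03 ± 0.22 (SE). At day 0 Id1 was the one gene of this list called, 5.98-fold higher in CCl4 than in OO livers (9.54 against 1.6 CPM). There 2.06% of all genes were called. Under ethanol Id1 was higher and Pim3 and Cebpb were lower in CCl4 than in OO livers, with log2 differences of 0.89 ± 0.21, -1.14 ± 0.31 and -0.87 ± 0.28 (SE). In that contrast 23.7% of all genes were called. Cebpb stood at 37.9, 21.6 and 23.6 CPM in the OO ethanol libraries 13 to 15, and Pim3 had a mean of 45.4 and an SD of 19.6 CPM there. Their differences without library 13 are not given.

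Markers of other cells moved in the same comparisons. From day 0 in CCl4 livers on ethanol, 5 of 6 Kupffer cell, 5 of 6 monocyte and 6 of 6 neutrophil markers rose, against 11.6% of all genes. In the same contrast 4 of 6 hepatocyte markers fell, against 9.11% of all genes. Kupffer cell markers summed to 297 to 313 CPM in CCl4 livers at day 0, 746 to 801 CPM on chow and 754 to 1142 CPM on ethanol. The OO chow libraries 12 and 5 had 1108 and 770 CPM. Summed over the 6 genes, monocyte markers stood at 120 to 121 CPM at day 0, 453 to 920 CPM on chow and 613 to 707 CPM on ethanol. Neutrophil markers stood at 8.11 to 16 CPM, 244 CPM in both chow libraries and 61.9 to 169 CPM. Cholangiocyte markers summed to 59.4 to 69.5, 91.7 to 307 and 387 to 597 CPM. Their median log2 change from day 0 was -0.08 on chow and 0.28 on ethanol, with 1 of 6 called in each. The sum therefore does not stand for most of the 6 markers. No marker of these lists was at 0 in the CCl4 groups. Hepatocyte markers summed to 79602 to 84077 CPM at day 0, 65026 to 81096 CPM on chow and 56894 to 67939 CPM on ethanol. The part of these cells in the changes of Lifr, Osmr, Socs3 and Il1rn was not tested. In whole tissue, fewer cells of a type and less RNA per cell cannot be told apart.

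**Figure D4:**
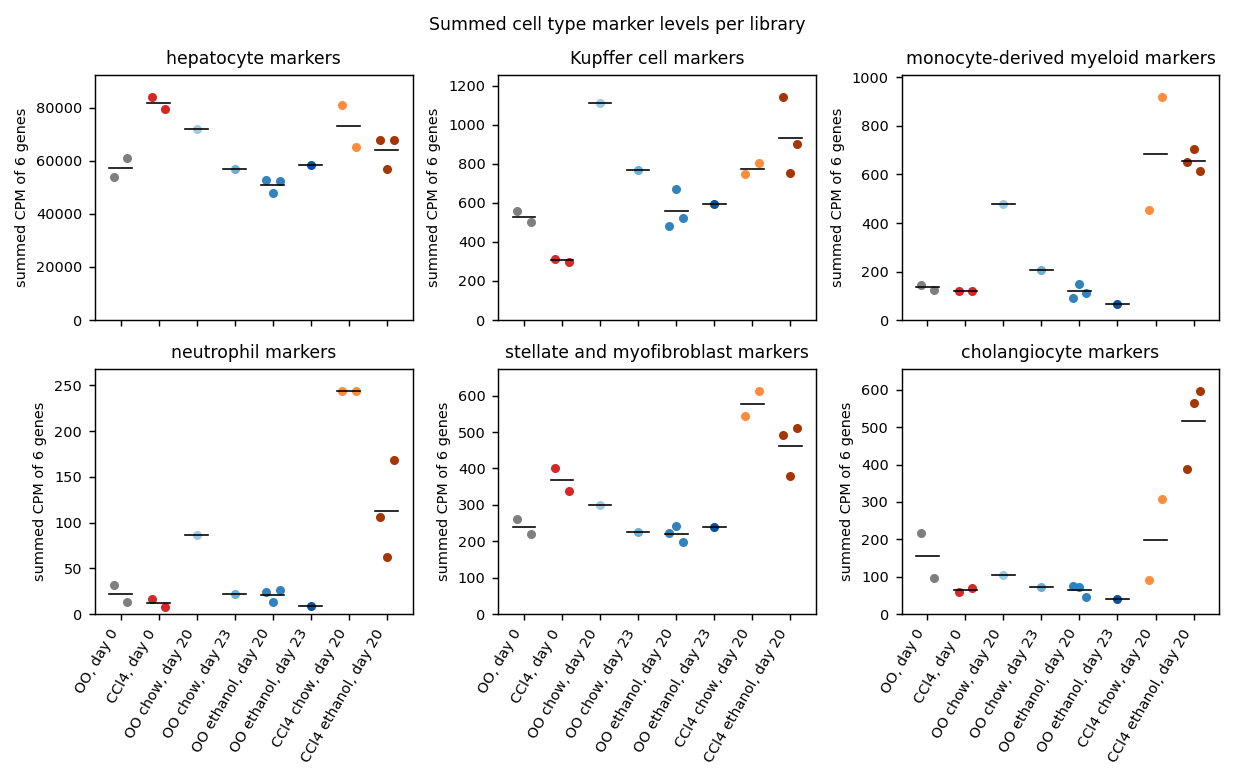
Summed TMM-normalised CPM of 6 marker genes (vertical axis, from 0) for 6 liver cell types, by group; points are libraries and lines are group means. Monocyte-derived myeloid and neutrophil markers are higher in all 5 CCl4 libraries at day 20 than in both CCl4 libraries at day 0.

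At day 0 the summed levels of Kupffer cell and hepatocyte markers also did not overlap between the arms. Of either list 0 of 6 markers were called there, and of all single genes 30.5% were separated upward and 29% downward. Kupffer cell markers summed to 297 to 313 CPM in CCl4 and 500 to 559 CPM in OO livers, and hepatocyte markers to 79602 to 84077 CPM and 53951 to 60955 CPM. Their part in the differences of Socs3 and Il1r1 was not tested.

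Several of the 9 genes varied together across libraries. Il6st and Il1r1 had a Pearson correlation of log2 levels of 0.93 over the 15 libraries, and each was among the 3 closest of 10088 genes to the other. Socs3 and Il1r1 had 0.89, Il6st and Stat3 0.86 and Stat3 and Il1r1 0.83. Lifr had 0.25 or less with all other members, and -0.59 with Lepr and -0.55 with Il1rn. The genes closest to Socs3 were St3gal4 (0.94), Irak4 (0.91) and the TNF receptor Tnfrsf1a (0.90), which was also among the 3 closest to Il6st (0.92) and Il1r1 (0.91). Steap4 of the acute-phase list was among those of Il1r1 (0.92). Those of Stat3 were led by Tifa (0.94), of Lifr by Scp2 (0.94), of Osmr by Arhgap1 (0.90), of Il1rn by Smpd3 (0.90), of Il6ra by Nlrc5 (0.88) and of Lepr by Lamtor3 (0.88). Library 13 was the highest of all for Il6st, Stat3, Socs3 and Il1r1, and library 14 was the lowest for Il6st and Il1r1. The part of these libraries in the correlations was not tested. The 15 libraries share groups, depth and lanes, so the values are descriptions.

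On mm10, from GENCODE M21, the genes lie at chr3:89864059-89913196 (Il6ra, minus strand), chr13:112464070-112510086 (Il6st, plus), chr15:7090614-7197489 (Lifr, plus) and chr15:6813577-6874969 (Osmr, minus). Lepr lies at chr4:101717404-101815352 (plus), Stat3 at chr11:100885098-100939540 (minus) and Socs3 at chr11:117966079-117970047 (minus). Il1r1 lies at chr1:40225080-40317257 (plus) and Il1rn at chr2:24336853-24351494 (plus). All 9 are annotated as protein-coding, and counts are over exons of the whole gene, so receptor isoforms such as the short and long forms of Lepr are not told apart.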

How the data were processed

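For each library the authors deposited a table of raw read counts by gene symbol. They name GSNAP, DESeq2 1.12.3 and mm10, per the submitters' processing notes. Libraries came from total liver RNA with the TruSeq mRNA kit, per the labels' protocols. How reads were counted, on which annotation and with what strand setting is not given in the sources used here. A further 5 entries of each table hold reads outside genes and were not used. Gene counts were 41.4% to 53% of the reads listed. Reads aligned to several places (18.1% to 28.8%) and ambiguous reads (0.346% to 0.682%) are entries of their own and are in no gene's count.

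Table names carry 28D for libraries labelled day 20 or 23, and groups follow the labels. Counts were scaled by TMM and filtered by filterByExpr to 14778 genes. They were fitted in edgeR 4.0.16 (R 4.3.3) with 1 mean per group over all 15 libraries (7 residual degrees of freedom, common dispersion 0.0414, prior degrees of freedom 4.43). Groups of 1 library are assumed to vary like the others. Each contrast was tested by the quasi-likelihood F test, p-values were adjusted by Benjamini-Hochberg over all tested genes, and an adjusted p under 0.05 is a call. SE is the log2 change divided by the square root of F. Correlations used log2 CPM with a prior count of 2 and genes of mean CPM at least 5. Alternatives were RLE scaling, no filter, 1 CPM in 2 libraries, DESeq2 1.42.0, limma-voom (limma 3.58.1) with or without a random lane block, the compared libraries alone, the fit without libraries 6 and 12, days 20 and 23 merged, the day 23 chow library as control, and each library left out. The fit was tested on simulated counts. Symbols of 23680 genes, all 9 members among them, matched GENCODE M21.

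The 9 genes, 9 pathway lists and marker lists were chosen with earlier results of these data known. Named genes are all 9 members, whatever their p, and up to 4 called genes per list and comparison with the smallest adjusted p. Saa1, Steap4, Hamp, Il18, Jak1, Jak2, Tyk2 and the untested ligands fall outside that rule and were named after their values were seen. Some results of the JAK, STAT and adaptor list are not reported here.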

Additional observations from a re-analysis of the deposited data

How the results depend on the processing

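Over 23 member values and their alternatives, 482 kept direction and side of the threshold, 34 lost a call, 32 gained a call and 0 changed direction. With the compared libraries alone, the members called numbered 5 for CCl4 against OO at day 0, 6 for day 20 against day 0 in CCl4 livers on chow, 1 for later chow against day 0 in OO livers, and 0 in place of 1 for CCl4 with ethanol against OO with chow. That last count was also 0 with RLE scaling, with no filter, and with limma-voom with or without lane as a block, and was 2 with DESeq2. DESeq2 called 1 for ethanol in CCl4 livers and 2 on chow from day 0. For CCl4 against OO under ethanol the count of 0 became 1 with no filter, 2 with DESeq2, 1 with limma-voom, 2 with limma-voom and the lane block, and 2 with days 20 and 23 merged. Leaving out single libraries gave 0 to 2 calls for CCl4 at day 0, 0 to 1 for ethanol in OO livers, 0 to 3 for CCl4 under ethanol, 0 to 1 for CCl4 with ethanol against OO with chow, 0 to 4 on chow and 1 to 6 on ethanol from day 0, and 0 in the other 4 contrasts. The cause of these shifts was not tested. For the lists, 538 counts stayed within 1.5 times their main value and 180 did not. Contrasts that need library 12 have no value without it. No paired analysis was possible because groups share no replicate numbers. Genes with few counts, Il6, Osm, Lif and Il1r2, are limited by depth.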
